A study of Mus musculus with 10 samples.

Results

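The spleen is wrapped in a capsule covered by a mesothelium and carries adipose tissue at its hilum, and 8 genes of these tissues were followed in whole spleen RNA. The genes were chosen by name, as Msln, Upk3b, Krt19 and Wt1 for the mesothelium and Adipoq, Fabp4, Cfd and Plin1 for the fat. Of the 8 genes, 6 have a probe set under their symbol in the platform table, out of 18193 genes so named, and together they hold 10 of the 45037 probe sets of the array. Cfd and Plin1 match none by symbol and are not analysed here. Of the 10 probe sets, 8 exceeded the array median in 2 or more of the 10 mice and entered the main tests, and the other 2 are dim Fabp4 probe sets.

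The samples were 10 female BALB/c mice, all immunized intraperitoneally with cartilage proteoglycan (PG, 100 µg of protein) in 2 mg of the adjuvant dimethyldioctadecyl-ammonium bromide (DDA) on days 0, 21 and 42, a protocol that induces an autoimmune arthritis. There was no unimmunized group. RNA from a 50 mg piece of each spleen, collected when the experiment ended, was hybridized to 1 Affymetrix array, giving log2 signals. The 2 old arthritic mice were both 9 months old, the 2 old non-arthritic mice were 7 and 5 months old (replicates 1 and 2), the 2 young arthritic mice were 5 and 4 months old, and the 4 young non-arthritic mice were 3, 3, 2 and 1 months old. Within both age classes every arthritic mouse was thus older than every non-arthritic mouse, only the old arthritic mice were 9 months old, and an age of 5 months occurs in an old and in a young group. Whether an age refers to the first injection or to the end of the experiment is not stated in the labels.

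The mesothelium is a single layer of flat epithelial cells of mesodermal origin that lines the serous cavities and covers their organs, the spleen among them. It is marked by mesothelin and by keratins, and it secretes a lubricating fluid. White adipocytes store triglyceride in a lipid droplet and release adipokines such as adiponectin, and visceral fat lies against the spleen at its hilum. Several of these genes are not confined to those cells, as Fabp4 is also made by capillary endothelium and macrophages, Krt19 by other simple epithelia and Wt1 by other cells of mesodermal origin.

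All arrays carried the transcripts of a spleen. Cd79a, a chain of the B cell receptor complex, lay between 12.41 and 12.94 on the log2 scale, the T cell receptor subunit Cd3e between 10.79 and 11.22, and Tlx1, a homeobox gene needed for the spleen to form, between 9.09 and 9.60. The array medians ran from 6.88 to 6.96 and the correlations between arrays from 0.9545 to 0.9923. Old arthritic mouse 2 stood apart from the rest, with a score of 52.55 on the first principal component (40.04% of the variance) against 19.57 in the next highest mouse, so results that rest on it are also given without it. In whole spleen RNA, fewer cells of a type and less RNA per cell cannot be told apart, and neither can be told from the amount of capsule or fat on the piece that was taken.

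Promoter windows of the 2 members in the RefSeq table used here are shown, because they stand for the mesothelium and the fat genes that follow different patterns below. Each is the 250 bases before the annotated start on GRCm38.p6, written 5′ to 3′ on the plus strand, with matches to the motifs searched in capitals. The Upk3b window lies at chr5:136038246-136038495 and the Adipoq window at chr16:23146286-23146535.
Upk3b: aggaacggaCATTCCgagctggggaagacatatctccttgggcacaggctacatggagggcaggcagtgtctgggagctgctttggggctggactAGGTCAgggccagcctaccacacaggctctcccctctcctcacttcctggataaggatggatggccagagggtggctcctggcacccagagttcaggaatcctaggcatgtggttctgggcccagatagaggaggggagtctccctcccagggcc
Adipoq: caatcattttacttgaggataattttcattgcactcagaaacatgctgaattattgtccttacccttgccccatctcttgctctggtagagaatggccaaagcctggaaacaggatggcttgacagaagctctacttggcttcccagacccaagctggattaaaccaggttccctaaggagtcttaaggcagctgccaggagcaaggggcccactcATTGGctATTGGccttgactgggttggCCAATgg
The motifs searched on both strands were the TATA box (TATAAA), the CCAAT box (its 5 letters), the C/EBP motif (TTGCNNAA), the nuclear receptor site (AGGTCA) and the TEAD motif (GGAATG), and no match of another motif overlapped those marked. In the Upk3b window the capitals mark GGAATG, the letters bound by TEAD factors, read on the minus strand at -241 to -236, and the nuclear receptor half-site AGGTCA at -155 to -150. In the Adipoq window they mark CCAAT at -34 to -30 and -27 to -23 on the minus strand and at -7 to -3 on the plus strand. Of 32851 RefSeq promoter windows of this length, 12.64% hold GGAATG, 14.02% hold AGGTCA and 33.85% hold CCAAT. The matches are matches of letters only.

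The 4 mesothelium genes had their 2 lowest values in the same 2 animals, the 9-month-old arthritic mice. Mesothelin, the surface glycoprotein encoded by Msln, had log2 signals of 6.60 and 5.65 in the old arthritic mice, 6.63 and 7.21 in the old non-arthritic mice, 6.94 and 7.12 in the young arthritic mice, and 7.21, 7.13, 6.84 and 7.38 in the young non-arthritic mice. The highest value, in the 1-month-old mouse, lay 1.73 above the lowest, in old arthritic mouse 2, on the log2 scale. The Msln signal was above the array median in 6 of 10 mice and well below it in old arthritic mouse 2, whose array median was 6.89.

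Upk3b, a uroplakin of urothelium that is also made by mesothelium, was measured by a pair of probe sets. The brighter one, 1454881_s_at, which stands for the gene here, gave 8.56 and 7.87 in the old arthritic mice, 8.86 and 9.18 in the old non-arthritic mice, 9.10 and 9.11 in the young arthritic mice, and 9.32, 9.21, 8.71 and 9.79 in the young non-arthritic mice. The other, 1434237_at, gave 8.27 and 7.74, 8.42 and 8.83, 8.89 and 8.70, and 8.85, 8.86, 8.57 and 9.38 in the same order. Both had the 1-month-old mouse highest and the old arthritic mice lowest, and they ran together over the 10 mice with a Pearson r of 0.979.

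Krt19, a keratin of simple epithelia, showed the widest range of the mesothelium genes. Its signals were 6.81 and 5.65 in the old arthritic mice, 7.00 and 7.22 in the old non-arthritic mice, 7.23 and 7.26 in the young arthritic mice, and 7.40, 7.14, 7.03 and 7.70 in the young non-arthritic mice. The 1-month-old mouse was again the highest, 2.06 above old arthritic mouse 2 on the log2 scale, where the low value is again under the array median. The young groups overlapped.

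Wt1, the zinc finger transcription factor that mesothelium keeps from its embryonic origin, varied less. Its probe set 1425995_s_at gave 8.35 and 8.64 in the old arthritic mice, 8.76 and 8.78 in the old non-arthritic mice, 9.10 and 8.96 in the young arthritic mice, and 8.68, 8.82, 8.97 and 8.83 in the young non-arthritic mice. Here old arthritic mouse 1 was the lower of the old arthritic pair, and the highest value was in a 5-month-old young arthritic mouse. The SD over the 10 mice was 0.208 for Wt1, against 0.4999 for Msln, 0.515 for Upk3b and 0.547 for Krt19. Those 3 exceed the SD of 97.02%, 97.33% and 97.83% of the 23805 probe sets kept, and Wt1 that of 68.4%.

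**Figure D1:**
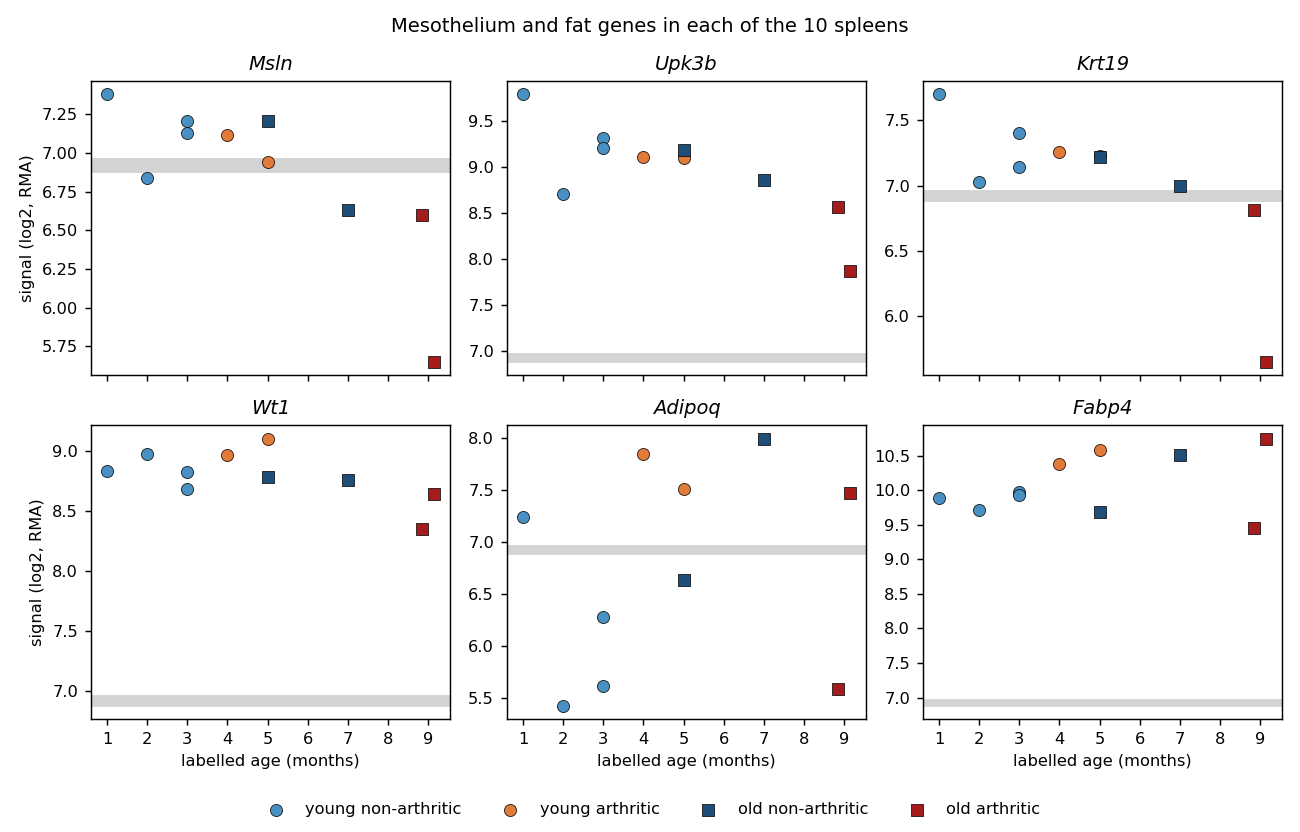
Log2 RMA signal (vertical axes, each with its own scale) of the 6 genes against labelled age in months (horizontal axes), 1 point per mouse, for the probe set that stands for the gene. Colours mark the 4 groups, the 2 mice aged 9 months are set slightly apart, and the grey band spans the array medians of 6.88 to 6.96. The 9-month-old arthritic mice are the lowest 2 in the Msln, Upk3b, Krt19 and Wt1 panels, while in the Adipoq and Fabp4 panels they lie far apart from each other.

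All 5 mesothelium probe sets had both old arthritic mice below the 8 other mice. Of all 23805 probe sets kept, 6.34% have this order, and 16.2% have both old arthritic mice below both old non-arthritic mice. As both were 9 months old and arthritic, age and arthritis cannot be told apart in them.

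Fitted with age in months and arthritis status together, the mesothelium genes had negative slopes with age that did not pass the threshold of an adjusted p of 0.05. In limma's test the Msln signal changed by -0.14 ± 0.0447 per month (log2, estimate ± SE, adjusted p = 0.466), a change of the same size in Upk3b had an SE of 0.0463 (adjusted p = 0.468), and Krt19 changed by -0.14 ± 0.0517 (adjusted p = 0.468). The slope of Wt1 was -0.06 ± 0.0241 (adjusted p = 0.477). All 5 mesothelium probe sets had an unadjusted p under 0.05, as did 2376 of the 23805 probe sets kept (9.98%). After adjustment 1 of the 23805 probe sets passed (0.0042%). Without old arthritic mouse 2 the slopes were -0.09 for Msln, -0.10 for Upk3b, -0.08 for Krt19 and -0.06 for Wt1, and without both old arthritic mice they were -0.08, -0.08, -0.07 and -0.02.

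At equal age, the differences between arthritic and non-arthritic mice lay within 1 standard error of 0 for Msln, Upk3b and Krt19. The estimates were -0.05 ± 0.241 for Msln, -0.08 ± 0.249 for Upk3b, -0.05 ± 0.278 for Krt19 and 0.16 ± 0.13 for Wt1, with adjusted p-values of 0.921, 0.873, 0.927 and 0.484 in limma's test. None of the 8 member probe sets tested passed, while 2.26% of all probe sets did (538). With 10 arrays, differences of the size of these standard errors were not detectable, in either direction.

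Old arthritic mice had lower mean signals than old non-arthritic mice for the 3 genes of wide range. The differences were -0.79 ± 0.304 for Msln, -0.81 ± 0.318 for Upk3b, -0.88 ± 0.336 for Krt19 and -0.28 ± 0.126 for Wt1, with adjusted p-values of 0.217, 0.228, 0.214 and 0.279 in limma's test. No member passed, against 0.0714% of all probe sets (17). The sizes turned on the old arthritic pair, and leaving out either mouse leaves 1 in that group. Without old arthritic mouse 1 the differences were -1.27 for Msln, -1.15 for Upk3b and -1.47 for Krt19. Without old arthritic mouse 2 they were -0.32 for Msln, -0.46 for Upk3b and -0.30 for Krt19. Wt1 moved the other way, to -0.13 without mouse 1 and -0.42 without mouse 2.

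In young mice the same genes differed by -0.11 ± 0.263 for Msln, -0.15 ± 0.275 for Upk3b, -0.08 ± 0.291 for Krt19 and 0.21 ± 0.109 for Wt1 between arthritic and non-arthritic animals. Their adjusted p-values in limma's test were 0.837, 0.786, 0.898 and 0.342, so no member passed, against 0.311% of all probe sets (74). The arthritis differences of old and young mice were themselves compared. The old difference was lower by 0.68 for Msln, 0.66 for Upk3b, 0.80 for Krt19 and 0.48 for Wt1. In limma's test the adjusted p was 0.9997 for every member probe set tested, and 0% of the probe sets passed. These values were -0.21 and -0.22 without old arthritic mouse 2, and -1.16 and -1.39 without old arthritic mouse 1. Old and young non-arthritic mice differed by -0.22 ± 0.263 for Msln, -0.24 ± 0.275 for Upk3b, -0.21 ± 0.291 for Krt19 and -0.05 ± 0.109 for Wt1 (adjusted p = 0.9974 for each), where again 0% of the probe sets passed. At an unadjusted p under 0.05, 737 probe sets (3.1%) passed for the first of these contrasts, those of Wt1 and Adipoq among them. For the second 759 (3.19%) passed, with no kept member probe set among them.

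The fat genes followed another order of mice. Adipoq encodes adiponectin, the adipocyte hormone, and its signals were 5.58 and 7.47 in the old arthritic mice, 7.99 and 6.63 in the old non-arthritic mice, 7.51 and 7.84 in the young arthritic mice, and 5.61, 6.27, 5.42 and 7.24 in the young non-arthritic mice. The highest and lowest mice lay 2.57 apart on the log2 scale, the lowest under the array median, and 99.87% of the probe sets kept had a smaller SD than its 0.986. Old non-arthritic mouse 1 and both young arthritic mice were highest, and young non-arthritic mouse 3 and old arthritic mouse 1 were lowest, so the old groups spanned nearly the whole range. The Adipoq signal was above the array median in 5 of the 10 mice.

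Fabp4 encodes the fatty acid binding protein of adipocytes and has 4 probe sets. The brightest, 1417023_a_at, which stands for the gene, gave 9.45 and 10.75 in the old arthritic mice, 10.51 and 9.69 in the old non-arthritic mice, 10.58 and 10.38 in the young arthritic mice, and 9.98, 9.93, 9.72 and 9.89 in the young non-arthritic mice. Probe set 1451263_a_at gave 7.43 and 8.92, 8.67 and 7.86, 8.67 and 8.66, and 8.20, 8.11, 8.04 and 8.03 in the same order. This pair gave the same mouse as highest and the same mouse as lowest, the old arthritic mice 2 and 1, and ran together with r = 0.979.

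The remaining Fabp4 probe sets stayed below the array median in all 10 mice and did not follow the bright pair, with r of -0.025 and 0.475 against 1417023_a_at. Probe set 1425809_at gave 6.22 and 6.65 in the old arthritic mice, 5.74 and 5.77 in the old non-arthritic mice, 6.17 and 6.09 in the young arthritic mice, and 5.61, 5.73, 5.76 and 5.46 in the young non-arthritic mice. Its 4 arthritic mice were above its 6 non-arthritic mice, an order that 12.2% of all 45037 probe sets have (5511). When all 45037 probe sets were fitted it was higher in arthritic mice by 0.44 ± 0.115 at equal age (adjusted p = 0.0318), by 0.68 ± 0.148 in old mice (adjusted p = 0.0338) and by 0.49 ± 0.128 in young mice (adjusted p = 0.0490), again by limma. In those fits 12.2%, 5.06% and 7.07% of all probe sets passed (5475, 2280 and 3186). Probe set 1424155_at ran between 5.41 and 5.90, and its difference at equal age was -0.28 ± 0.0979 (adjusted p = 0.0890). The probe sets of this gene thus disagree, and the one that passed is dim.

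**Figure D2:**
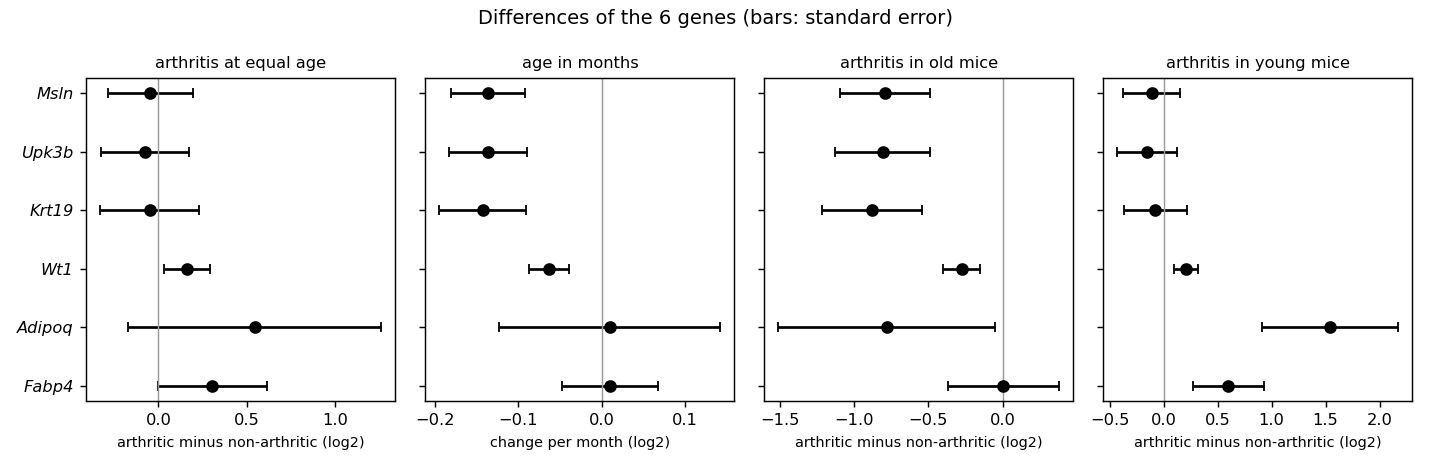
Estimated log2 differences of the 6 genes with bars of 1 standard error, in 4 panels for arthritis at equal age, age per month, arthritis in old mice and arthritis in young mice, each with its own horizontal scale. The vertical grey line marks 0. The old-mouse differences of Msln, Upk3b and Krt19 lie between -0.88 and -0.79, and the young-mouse difference of Adipoq lies at 1.54 with a bar of 0.632.

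In young mice both arthritic animals had higher Adipoq and Fabp4 signals than the 4 non-arthritic animals, with no overlap in the 3 fat probe sets kept. This order was common, as 25.6% of all probe sets kept have it. The differences were 1.54 ± 0.632 for Adipoq (adjusted p = 0.246) and 0.60 ± 0.327 for Fabp4 (adjusted p = 0.355) in limma's test, so neither passed. In old mice the differences were -0.78 ± 0.729 for Adipoq (adjusted p = 0.575) and 0.01 ± 0.377 for Fabp4 (adjusted p = 0.994), by limma. That of Adipoq had the other sign than in young mice, and that of Fabp4 was near 0. The other kept Fabp4 probe set, 1451263_a_at, gave -0.09 ± 0.409 in old mice and 0.57 ± 0.354 in young mice. The old arthritic mice themselves lay 1.89 apart in Adipoq and 1.30 apart in Fabp4. The difference between the old and young contrasts was -2.33 ± 0.965 for Adipoq and -0.59 ± 0.499 for Fabp4, with the adjusted p of 0.9997 given above.

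At equal age the arthritic mice differed by 0.55 ± 0.716 in Adipoq (adjusted p = 0.675) and by 0.31 ± 0.31 in Fabp4 (adjusted p = 0.582), and the slopes with age were 0.01 ± 0.133 (adjusted p = 0.987) and 0.01 ± 0.0575 (adjusted p = 0.963) per month, all by limma. Neither gene passed. Single mice moved these values in both directions. The equal-age difference of Adipoq was 1.63 without old non-arthritic mouse 1 and -0.05 without young arthritic mouse 2, and that of Fabp4 was 0.70 without the former and 0.13 without young arthritic mouse 1. The old-mouse differences of Adipoq and Fabp4 were 0.16 and 0.66 without old arthritic mouse 1, and -1.73 and -0.65 without old arthritic mouse 2. Among non-arthritic mice, old and young animals differed by 1.18 ± 0.632 in Adipoq and 0.22 ± 0.327 in Fabp4 (adjusted p = 0.9974 for both).

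Within the mesothelium set, the signals of Msln, Upk3b and Krt19 varied together from mouse to mouse. The genes of a mouse were read from the same array and normalized together, which these correlations share. Over the 10 mice, Msln followed Krt19 with a Pearson r of 0.972 (Spearman 0.903) and Upk3b with 0.950 (Spearman 0.976). Upk3b followed Krt19 with 0.954 (Spearman 0.879). Without old arthritic mouse 2 these were 0.890, 0.903 and 0.963, and without the 2 mice farthest from the median of the first gene 0.838, 0.858 and 0.921. Wt1 ran apart from the 3, with r between 0.383 and 0.388. Adipoq and Fabp4 had an r of 0.790 (Spearman 0.721), which was 0.799 without old arthritic mouse 2 and 0.673 without the 2 farthest mice.

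Each set was then summarized as a profile, the mean of its genes after centring each gene on its own mean over the 10 mice. The mesothelium profile was -0.34 and -0.97 in the old arthritic mice, -0.11 and 0.18 in the old non-arthritic mice, 0.17 and 0.19 in the young arthritic mice, and 0.23, 0.15, -0.03 and 0.51 in the young non-arthritic mice. The fat profile was -0.90 and 0.69, 0.82 and -0.26, 0.62 and 0.69, and -0.63, -0.32, -0.85 and 0.14 in the same order. The profiles shared little order, with r = -0.143 (Spearman -0.067) over the 10 mice and 0.301 without old arthritic mouse 2. Old arthritic mouse 1 was low in both, whereas old arthritic mouse 2 had the lowest mesothelium profile and one of the highest fat profiles. Wt1 was as close to the fat profile (r = 0.3895) as to the profile of the other mesothelium members (r = 0.3908). Without old arthritic mouse 2 these were 0.533 and 0.339.

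**Figure D3:**
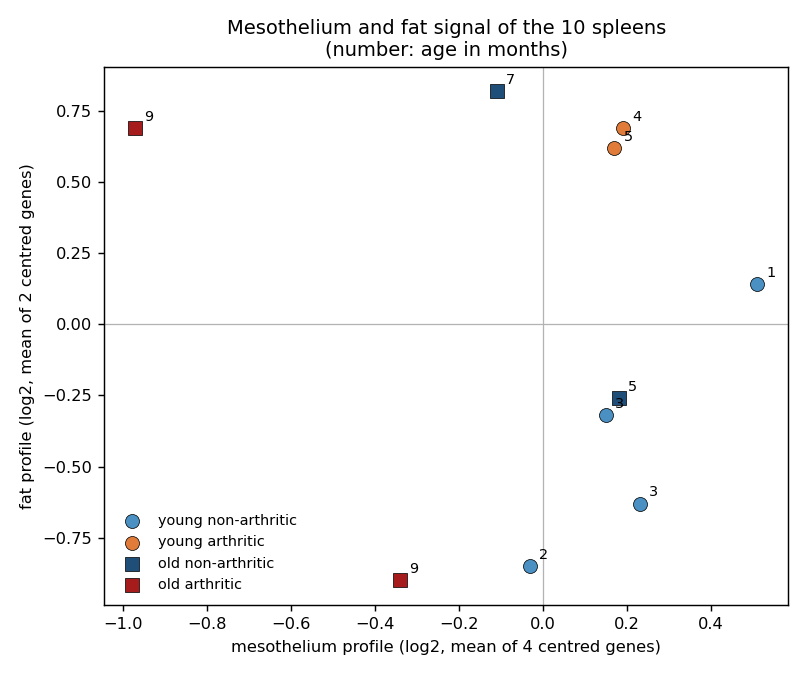
Fat profile (vertical axis, mean of 2 centred genes, log2) against mesothelium profile (horizontal axis, mean of 4 centred genes, log2), 1 point per mouse, with colours for the 4 groups and the age in months beside each point. The points do not line up (r = -0.143): the 9-month-old mice lie at -0.34 and -0.97 on the mesothelium axis but at -0.90 and 0.69 on the fat axis.

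A wider list held 18 other mesothelium genes, of which 11 had a probe set above the filter, and 7 of these 11 had an r over 0.7 with the mesothelium profile, which none of them enters. The median r was 0.766, against -0.107 over all 11870 named genes, of which 6.655% were over 0.7. The mean of the 11 centred genes was -0.32 in both old arthritic mice, -0.10 and 0.11 in the old non-arthritic mice, 0.16 and 0.09 in the young arthritic mice, and 0.10, 0.08, -0.03 and 0.24 in the young non-arthritic mice, and followed the members' profile with r = 0.917. Both old arthritic mice lay below all 8 others in 7 of the 11 genes (Lrrn4, Gpm6a, Rspo1, Efemp1, Nkain4, Krt7 and Clic5) and in 9 of the list's 18 kept probe sets, beside the background of 6.34% given above. Cldn15, Krt8, Upk1b and Aldh1a2 did not have this order.

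Rspo1, a secreted activator of Wnt signalling, was closest to the profile in this list (r = 0.905). Its signals were 7.29 and 7.15 in the old arthritic mice, 7.88 and 8.32 in the old non-arthritic mice, 8.16 and 7.93 in the young arthritic mice, and 7.97, 8.03, 8.06 and 8.36 in the young non-arthritic mice, leaving a gap between the old arthritic mice and all others. Lrrn4, a leucine-rich repeat membrane protein and the list's most variable gene, gave 6.86 and 7.02, 7.60 and 8.01, 7.86 and 7.24, and 7.64, 7.71, 7.62 and 8.25 (r = 0.766). Efemp1, a fibulin of the extracellular matrix, gave 8.49 and 8.54, 9.09 and 9.38, 9.55 and 9.43, and 9.49, 9.06, 9.32 and 9.23 (r = 0.791). In these 3 genes the old arthritic mice lay close to each other, unlike in Msln and Krt19.

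Without old arthritic mouse 2, 4 of the 11 genes had an r over 0.7 with the profile (Lrrn4, Gpm6a, Rspo1 and Nkain4), and the median was 0.682. The share and median of all named genes were not computed without that mouse, here or below. Gpm6a, a membrane glycoprotein, went from r = 0.749 to 0.951, Nkain4 from 0.830 to 0.900, Efemp1 from 0.791 to 0.682 and the keratin Krt7 from 0.846 to 0.630. Upk1b, another uroplakin, went from 0.766 to 0.256, so its likeness rested on that mouse. The tight junction gene Cldn15 (r = -0.059) and the keratin Krt8 (0.017) did not follow the profile. No probe set of the list passed in any of the 6 comparisons, and its median slope with age was -0.05 per month, against -0.01 over all probe sets kept. The slopes were -0.10 ± 0.0331 for Rspo1, -0.08 ± 0.0394 for Lrrn4 and -0.11 ± 0.0374 for Efemp1, with adjusted p-values of 0.466, 0.519 and 0.468 in limma's test. Cldn15 had the list's smallest p at equal age, with a difference of 0.64 ± 0.205 (adjusted p = 0.109).

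The list of 28 other adipocyte genes had 18 genes above the filter. Their mean centred signal followed the fat profile with r = 0.804, and all 18 had an r above 0 with it, but the median of 0.329 stood not far from the 0.193 of all named genes. An r over 0.7 was reached by 3 of the 18, Car3, Retn and Gpd1, against 1.845% of all named genes. Cidec and Cidea, proteins of the lipid droplet, had r of 0.810 and 0.723 from probe sets below the filter, and the leptin gene Lep, a defining adipocyte marker, was also below it.

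Car3, a carbonic anhydrase abundant in adipocytes, had the highest r with the fat profile among the 1707 named genes whose SD over the mice was at least 0.25. It was 0.903, and 0.903 again without old arthritic mouse 2. It gave 8.47 and 10.40 in the old arthritic mice, 11.06 and 9.87 in the old non-arthritic mice, 10.21 and 10.61 in the young arthritic mice, and 8.80, 9.57, 9.56 and 10.12 in the young non-arthritic mice. As in the Adipoq values, old arthritic mouse 1 was near the bottom and old non-arthritic mouse 1 at the top. Retn, the adipokine resistin of mice, gave 7.61 and 8.02, 7.65 and 7.39, 7.88 and 8.26, and 7.05, 7.20, 7.16 and 7.65 in the same order (r = 0.773). Gpd1, the glycerol-3-phosphate dehydrogenase of triglyceride synthesis, ran only between 8.23 and 8.69 (r = 0.747).

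Among the adipocyte list, 1 probe set passed in the comparison at equal age, beside the 2.26% of all probe sets. It was 1451666_at of Acly, the citrate lyase that feeds fatty acid synthesis, higher in arthritic mice by 0.42 ± 0.0887 (adjusted p = 0.0462, limma). Its r with the fat profile was 0.341. Agpat2 (0.84 ± 0.237, adjusted p = 0.0843), Retn (0.63 ± 0.196, adjusted p = 0.104) and Dgat2 (0.39 ± 0.124, adjusted p = 0.108), of which Agpat2 and Dgat2 are enzymes of triglyceride synthesis, had the next smallest p-values and did not pass. The median difference of the list's 34 kept probe sets was 0.176, against 0.0893 over all. Thrsp, a lipogenic gene, and Slc2a4, the insulin-regulated glucose transporter, had r of -0.749 and -0.7485 with the mesothelium profile, and Lpl, lipoprotein lipase, had 0.758. Without old arthritic mouse 2 these were -0.201, -0.548 and 0.667.

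**Figure D4:**
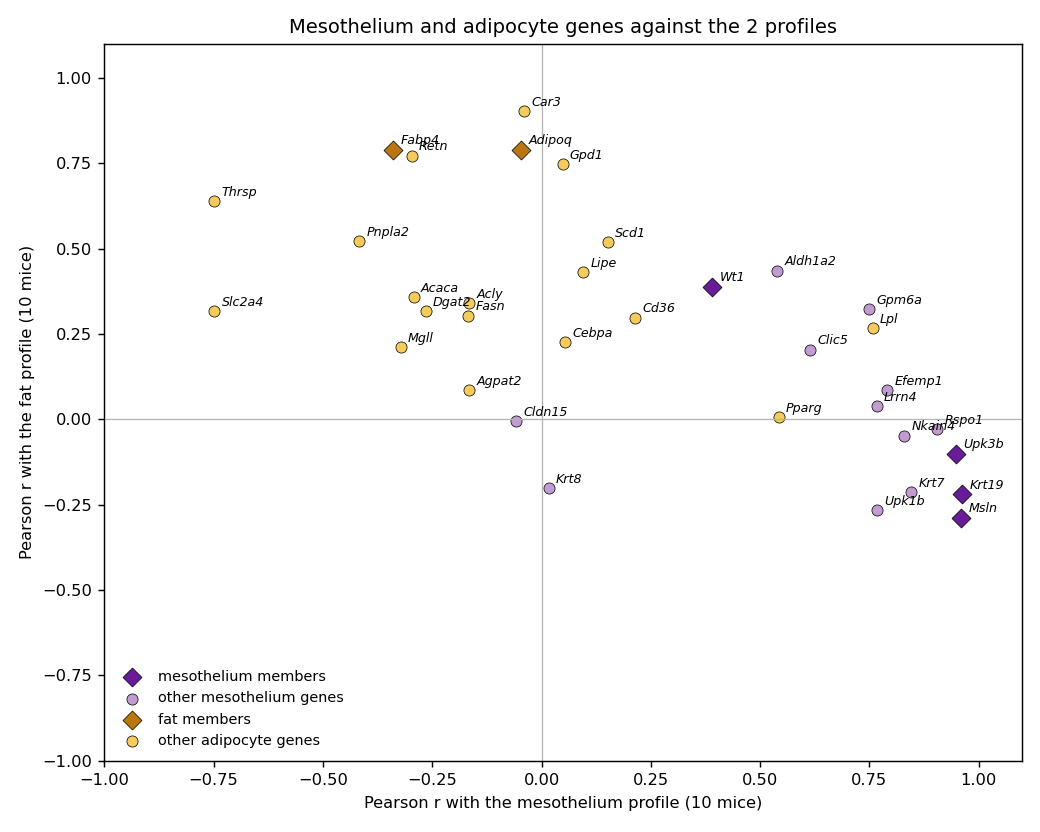
Pearson r over the 10 mice with the fat profile (vertical axis) against r with the mesothelium profile (horizontal axis), 1 point per gene above the filter, for the 6 members (diamonds) and the other mesothelium and adipocyte genes (circles). Most mesothelium genes lie at the right, with 7 of 11 over 0.7 on the horizontal axis, while the 18 adipocyte genes spread from -0.749 to 0.758 along it and all lie above 0 on the vertical axis. For each member, the r with its own profile was computed with that gene left out of the profile.

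The genes most like the mesothelium profile were sought among 1707 named genes with an SD of at least 0.25 over the 10 mice. The 10 with the highest r were Als2cl (0.969), Epha3 (0.954), Sema3c (0.952), Satb1 (0.946), Themis (0.943), Camk4 (0.942), Sema3d (0.938), Tdrp (0.926), Top2b (0.923) and Bmpr2 (0.922). Epha3 is an ephrin receptor, Sema3c and Sema3d are secreted semaphorins, and Satb1, Themis and Camk4 act in T cells. All 10 had their lowest value in old arthritic mouse 2, which is the lowest mouse for 16.56% of the probe sets kept. Of these 10 genes, only Epha3 stayed in the first 10 when that mouse was left out, and the others were then Gpm6a, Igfbp5, Pkia, Igfbp6, Pdcd4, Insig1, Cdh11, Rspo1 and Kazald1, with 2 of the mesothelium list, Gpm6a and Rspo1, among them. Without that mouse the r of Satb1, Themis and Camk4 with the profile was 0.874, 0.8003 and 0.810.

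The 10 genes most like the fat profile included adipocyte genes. They were Car3 (0.903), Rarres1 (0.838), Cdo1 (0.804), Retn (0.773), Neurl1a (0.742), Rcan2 (0.740), Six2 (0.726), Pcdhb9 (0.725), Cirbp (0.722) and Angptl4 (0.714). Cdo1, the cysteine dioxygenase, gave 6.33 and 7.01 in the old arthritic mice, 6.66 and 6.34 in the old non-arthritic mice, 7.13 and 7.27 in the young arthritic mice, and 5.75, 6.37, 6.38 and 6.79 in the young non-arthritic mice. Angptl4, a secreted inhibitor of lipoprotein lipase, gave 9.10 and 9.91, 10.09 and 9.34, 9.78 and 9.41, and 9.14, 9.16, 9.57 and 9.23. Both were higher in old arthritic mouse 2 than in old arthritic mouse 1, as the fat members were. Car3, Rarres1, Cdo1 and Retn stayed among the first 10 without old arthritic mouse 2, and of the 10 genes only Car3 stayed without the minimum SD.

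Genes of other cell types that could share the piece of spleen were read against both profiles. The fibroblast and matrix list, whose cells make the collagenous capsule, had 4 of 12 genes over 0.7 with the mesothelium profile and a median r of 0.563 (2 of 12 and 0.492 without old arthritic mouse 2), and its mean centred signal was -0.37 and -0.31 in the old arthritic mice, -0.23 and 0.05 in the old non-arthritic mice, 0.12 and 0.04 in the young arthritic mice, and -0.20, 0.00, 0.45 and 0.45 in the young non-arthritic mice. The 2 old arthritic mice were lowest here and in the mesothelium profile, but other mice differed. Young non-arthritic mouse 1 had -0.20 here and 0.23 in the mesothelium profile, and young non-arthritic mouse 3 had 0.45 and -0.03. The part of these genes in the mesothelium result was not tested. Both old arthritic mice lay below all 8 others in 2 of the 12 genes (Dcn and Dpt) and in 3 of 24 kept probe sets, beside 6.34% of all. Dpt, dermatopontin, gave 9.10 and 9.34 in the old arthritic mice and 9.74 to 10.19 in the others (r = 0.766). Lum, the proteoglycan lumican, reached 10.58 and 9.42 in the 2-month-old and 1-month-old mice against 7.18 to 8.79 in the other 8, and did not follow the profile (r = 0.133).

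Macrophage genes were also low in the 9-month-old mice. The mean centred signal of the 10 genes was -0.17 and -0.10 in the old arthritic mice, 0.08 and 0.02 in the old non-arthritic mice, 0.06 and 0.10 in the young arthritic mice, and -0.03, 0.03, 0.02 and -0.01 in the young non-arthritic mice, with r = 0.574 with the mesothelium profile. Both old arthritic mice lay below both old non-arthritic mice in 8 of 10 genes and 12 of 16 probe sets, beside the 16.2% of all probe sets kept, and below all 8 others in 2 of 10 genes. Adgre1 was over 0.7 with the mesothelium profile (0.702), and no macrophage gene was without old arthritic mouse 2. The median r of the list with that profile was 0.3815 over the 10 mice and 0.4294 without that mouse. The part of these genes in the mesothelium values was not tested.

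Fmod, the collagen-binding proteoglycan fibromodulin, was the single call in the comparison by age. Its probe set 1456084_x_at changed by -0.14 ± 0.0139 per month (adjusted p = 0.0307) and was higher in arthritic mice at equal age by 0.47 ± 0.075 (adjusted p = 0.0216), both by limma. The brighter Fmod probe set, 1415939_at, had a slope of -0.09 ± 0.0198 (adjusted p = 0.466) and an r of 0.737 with the mesothelium profile. The slope of 1456084_x_at was thus close to those of Msln, Upk3b and Krt19 but with a smaller error.

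The smooth muscle list, which covers the muscle of capsule and vessels, had no gene of 9 over 0.7 with either profile (median r 0.450 with the mesothelium and 0.087 with the fat profile), and 1, Actg2, over 0.7 with the mesothelium profile without old arthritic mouse 2. Endothelium, a second source of Fabp4 RNA, had a median r of 0.198 with the fat profile and none of 10 genes over 0.7, and for macrophages, a further source, the median was 0.370 with none of 10 over 0.7. Without old arthritic mouse 2 the macrophage median was 0.596, and 4 of 10 genes were over 0.7 with the fat profile (Adgre1, Csf1r, Vcam1 and C1qa), while the endothelial list still had none. No share of all named genes was computed without that mouse. In old arthritic mouse 1 the endothelial list had its lowest mean, -0.19, and the macrophage list likewise, -0.17, in the mouse with the lowest Fabp4 signal. Their part in the Fabp4 values was not tested. Of the 5 pancreatic acinar genes above the filter, out of 12 listed, Cela1 followed the fat profile (r = 0.849), with a range from 10.53 to 10.95, while the median of the 5 was 0.044. No probe set of the smooth muscle, endothelium, macrophage and acinar lists passed in any comparison. Of the 16 kept probe sets of spleen genes, 5 were higher in arthritic mice at equal age, beside 2.26% of all probe sets, with 4 of the immunoglobulin gene Ighm and 1 of Nkx2-5. The brightest Ighm probe set did not pass (0.07 ± 0.0605, adjusted p = 0.5005, limma). Of the 8 spleen genes kept, 2 were over 0.7 with the mesothelium profile, Cd4 (0.741) and Cr2 (0.751), beside 6.655% of all named genes. The median of the 8 was 0.357. Without old arthritic mouse 2, the 2 over 0.7 were Cd3e (0.787) and Tlx1 (0.755), and the median was 0.224. The part of lymphocyte genes in the mesothelium values was not tested.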

How the data were processed

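The authors deposited log2 signals, 1 for each probe set and mouse, computed by robust multi-array average (RMA) according to the submitters' processing notes, with the software version not given in the sources used here. RMA corrects background, makes the distributions of the arrays equal and summarizes the probes of a set, so a shift common to all transcripts would be lost. The study's text does not describe the arrays, and mice are separate replicates per the labels. The 64 control rows were left out. Probe sets exceeding the array median in 2 or more arrays were kept (23805 of 45037), and the brightest kept probe set by mean stands for a gene. Linear models with moderated variances (limma 3.58.1, R 4.3.3) were tested at a Benjamini-Hochberg adjusted p of 0.05 over all kept probe sets. Age in months with arthritis status (7 residual degrees of freedom) gave the equal-age difference and the slope, and 4 group means (6 residual degrees of freedom) gave the other 4 contrasts, in which groups of 2 mice share 1 estimate of the spread. Members below the filter were read from a fit of all 45037 probe sets. The fits were checked on simulated data.

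Named genes are the members, the 10 genes with the highest r with each profile (SD of at least 0.25 over the mice), and up to 4 genes per list by smallest p at equal age and by largest SD. Genes of a list with a high or low r, the calls of a list and Lep were named after their values were seen. The members, lists and tests were chosen with earlier results of these data known. The number of arrays limits the precision, and p-values rest on the spread among these mice. Replicate numbers are shared by the groups, but mice with the same number did not deviate together (r from -0.525 to 0.356), so they were not treated as pairs. Alternatives covered the replicate block, the filter, normalization, array weights, moderation and trend of the variance, gene means, the arrays fitted and leaving out each mouse. Promoter windows and motif shares come from the RefSeq table of GRCm38.p6. Figures were drawn with matplotlib 3.10.9.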

Additional observations from a re-analysis of the deposited data

How the results depend on the processing

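No member passed in the 6 comparisons as fitted. With no filter on dim probe sets, 1 of the 10 member probe sets passed at equal age, 1 in old mice and 1 in young mice, each time the dim Fabp4 probe set 1425809_at; that alternative also took the calls over all probe sets from 538 to 5475 at equal age, from 17 to 2280 in old mice and from 74 to 3186 in young mice. Leaving out each mouse in turn gave 0 members passing at equal age and 0 for the slope with age. In the group contrasts, leaving out a mouse of a pair leaves 1 in its group, so only sizes are given. In old mice the Msln difference was -1.27 without old arthritic mouse 1 and -0.32 without old arthritic mouse 2. That of Krt19 was -1.47 and -0.30. With the replicate block 0 members passed, and the slope of Msln was -0.18 per month (adjusted p = 0.147, limma). Under the alternatives other than leaving out 1 mouse, 329 of 336 member values stayed within their spread and 7 moved, 6 of them slopes with age fitted without both old arthritic mice, an alternative chosen after seeing the data. Among values that did not pass, 7 changed sign there and 21 of 360 when a mouse was left out. The causes of these changes were not tested. Among the alternatives behind the 336 values, the filter, the trend and moderation of the variance, and fitting only the groups compared leave an estimate unchanged. Those values could not move, so the count does not measure how stable the results are. With 2 mice in 3 of the groups and arthritic mice older in both age classes, the arrays cannot separate arthritis from an age effect that is not linear, and dim signals near the array median, such as those of Msln, Krt19 and Adipoq, some of them under it, leave small changes undetectable.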
